A study of Oryza sativa with 6 samples.

Results

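Flavonoids are made from the phenylpropanoid pathway, which turns phenylalanine into coumaroyl-CoA. Chalcone synthase condenses coumaroyl-CoA with malonyl-CoA to a chalcone, chalcone isomerase closes the ring to a flavanone, and flavanone 3-hydroxylase converts the flavanone to a dihydroflavonol. Dihydroflavonols are the precursors from which flavonol synthase makes flavonols and dihydroflavonol 4-reductase opens the route to anthocyanins. Anthocyanin build-up in leaves is a widely known sign of phosphorus (P) shortage in plants.

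Chalcone synthase and flavanone-3-hydroxylase were followed here through 2 probes, AK061132 and AK071218, among 21495 rice probes on the array. The probe names are accessions of rice full-length cDNAs. Both were picked by name from genes already known to respond to P supply in these data, so their response to P is given below as a description without a test. The array's description of AK061132 names a chalcone synthase mRNA of the mint relative Perilla frutescens, and that of AK071218 names a flavanone-3-hydroxylase mRNA of barley. Either rice gene is therefore named by its resemblance to a gene of another species. Of the rice probe accessions, 0 were found in the reference gene table, so no genome position is given.

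Root RNA of rice (Oryza sativa) was compared between the cultivar Nipponbare and 6-4, a near-isogenic line that carries inserts from the indica cultivar Kasalath. Plants of both lines grew in pots of 12 L filled with Andosol, a volcanic ash soil, either high in P (control) or deficient in P. Both lines within a condition were hybridized together on 2-colour Agilent arrays, with 3 biological replicates per condition, so that 6 arrays gave 12 channels and 4 groups of line and condition. Line 6-4 is 1 line, and whether either gene lies in a Kasalath insert was not analysed here. Less transcript in 6-4 and weaker binding of a Kasalath transcript to a probe on the array cannot be told apart. Neither can fewer cells of a type and less RNA per cell, since 1.6 g of root tissue was extracted whole.

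The dye carried by 6-4 was Cy5 on the array of control replicate 2 and on those of P-deficient replicates 1 and 3, and Cy3 on the other arrays. Between 89.8% and 99.5% of rice probes were well above background per channel. In Cy3, negative control spots had a median signal of 579 on the control array of replicate 2, 501 on the P-deficient array of replicate 2 and 198 on the control array of replicate 1, against 61.6 to 65.3 on the others. In Cy5 that median lay between 67.6 and 70.9 on every array. Descriptions naming root-specific proteins fit 9 probes, of which 8 to 9 were well above background in each channel, and these made up 0.223 to 0.296% of all rice probe signal in Nipponbare and 0.245 to 0.309% in 6-4 under control. Under P deficiency they made up 0.144 to 0.166% in Nipponbare and 0.194 to 0.224% in 6-4, where the lines did not overlap. Of 8 tested root-specific probes, 2 were higher and 0 lower in 6-4 under P deficiency, by up to 0.96 on the log2 scale. In that comparison 8.94% of all probes passed. In the difference of the line effects between conditions 2 passed above 0 and 0 below, where 19.7% of all probes passed. In the mean response to P deficiency 3 of the 8 were lower, by up to -1.84, and 0 higher, where 1.51% of all probes passed. Of 18 probes for chlorophyll-binding and other photosynthesis proteins, 14 to 18 were well above background, at 0.0509 to 0.0996% of the signal. The part of these marker differences in the results below was not tested.

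Chalcone synthase (AK061132) stood low in both lines under control and high in both under P deficiency. On the normalized log2 scale of probe intensity, the control channels of replicates 1 to 3 read 7.94, 6.99 and 8.02 in Nipponbare and 7.29, 8.01 and 7.75 in 6-4. The P-deficient channels read 10.09, 9.83 and 9.53 in Nipponbare and 10.44, 9.14 and 9.19 in 6-4. Every P-deficient channel thus lay above every control channel, while within a condition the values of both lines were interleaved.

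The group means of AK061132 ran from 7.65 ± 0.57 (SD, n = 3) in Nipponbare control through 7.68 ± 0.36 (SD, n = 3) in 6-4 control to 9.59 ± 0.74 (SD, n = 3) in P-deficient 6-4 and 9.82 ± 0.28 (SD, n = 3) in P-deficient Nipponbare. The step between the control and P-deficient groups was 1.91, and the channels on either side of it did not overlap. The lines overlapped within each condition, where their means were 0.03 apart under control and 0.23 apart under P deficiency.

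Flavanone-3-hydroxylase (AK071218) ordered all groups but the upper pair. Its control channels read 9.11, 8.47 and 9.48 in Nipponbare and 8.32, 7.49 and 8.32 in 6-4. In P-deficient roots it read 10.80, 10.94 and 11.05 in Nipponbare and 10.48, 10.61 and 10.83 in 6-4. The lowest control channels of both lines came from replicate 2, and the P-deficient channels of both lines spanned a narrower range than the control ones.

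From lowest to highest, the group means of AK071218 were 8.04 ± 0.48 (SD, n = 3) in 6-4 control, 9.02 ± 0.51 (SD, n = 3) in Nipponbare control, 10.64 ± 0.18 (SD, n = 3) in P-deficient 6-4 and 10.93 ± 0.12 (SD, n = 3) in P-deficient Nipponbare. The first and the second step, of 0.98 and 1.62, separated groups whose channels did not overlap. The share of all probes with such a separation of the lines under control is not given here. The last step, of 0.29, joined groups that did overlap.

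**Figure D1:**
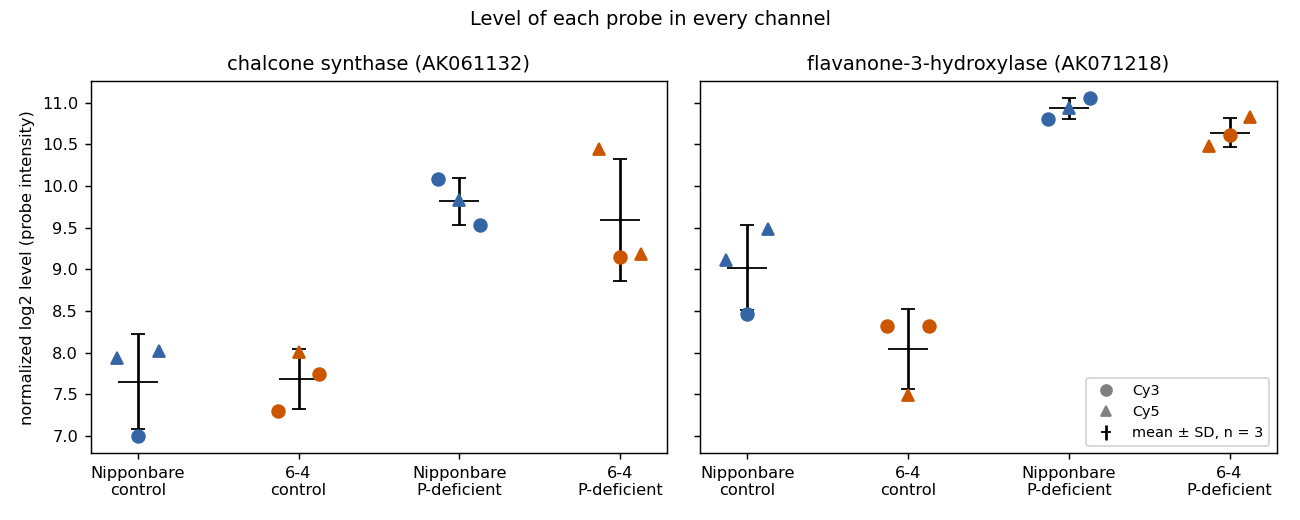
Normalized log2 intensity of AK061132 and AK071218 (vertical axis) in each of the 12 channels, by line and condition (horizontal axis). Circles are Cy3 channels, triangles are Cy5 channels, points run from replicate 1 to 3 from left to right, and bars give the mean ± SD (n = 3). For both probes all P-deficient channels lie above all control channels, and for AK071218 the 3 control channels of 6-4 lie below those of Nipponbare.

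Signal close to the negative controls limits the control levels of AK061132 and, to a lesser degree, those of AK071218 in Cy3. Both probes were called well above background in all 12 channels, and none of their spots was saturated or excluded. The unnormalized mean signal of AK061132 under control was nevertheless only 1.05 to 2.31 times the median negative control spot of its channel in Cy3, against 4.56 to 5.36 times in Cy5. The lowest of these, Nipponbare control replicate 2, was brighter than 67.3% of the negative control spots. In P-deficient channels the signal of AK061132 was 1.49 to 9.56 times the negative control median in Cy3 and 16.6 to 29.0 times in Cy5. For AK071218 it was 1.43 to 3.59 times in Cy3 and 4.02 to 17.1 times in Cy5 under control, and 2.53 to 28.3 times and 30.2 to 58.0 times under P deficiency.

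**Figure D2:**
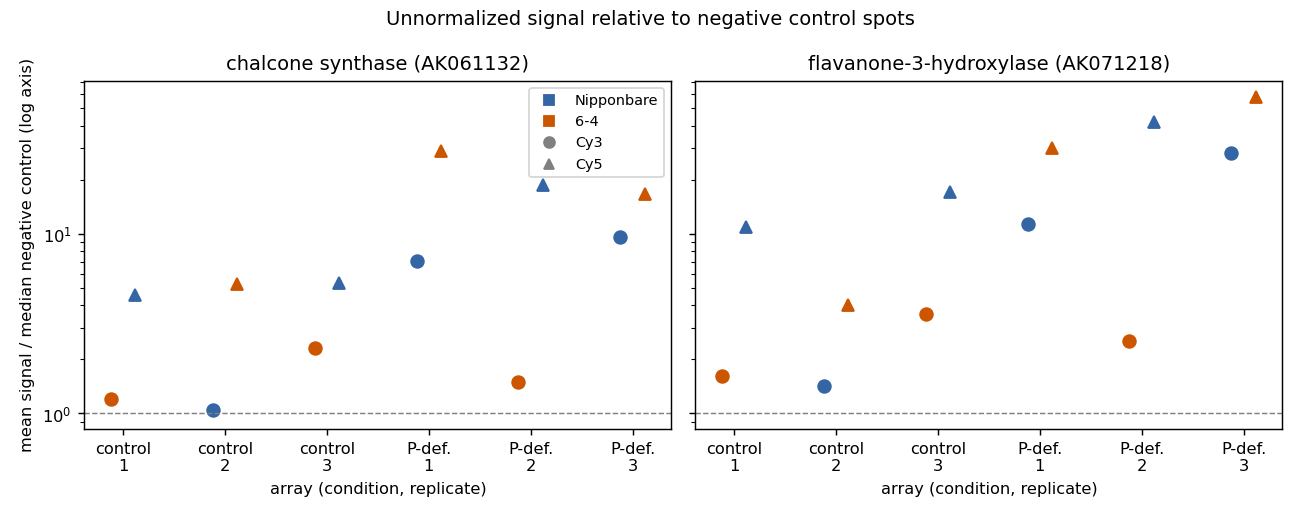
Unnormalized mean signal of AK061132 and AK071218 divided by the median negative control spot of the same channel (vertical log axis), for each array (horizontal axis). Circles are Cy3, triangles are Cy5, blue is Nipponbare and orange is 6-4, and the dashed line marks a signal equal to the negative controls. The Cy3 channels of AK061132 under control sit at 1.05 to 2.31, and on both replicate 2 arrays the Cy3 points of both probes stay at or below 2.53.

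The response to P deficiency, averaged over both lines, was 2.04 on the log2 scale (SE 0.24) for chalcone synthase, a 4.10-fold higher level. It was 2.25 (SE 0.23), or 4.77-fold, for flavanone-3-hydroxylase. Among 20531 probes that passed the filter on dim spots these stood 24th and 12th from the top. In this comparison 1.51% of all probes passed an adjusted p of 0.05 in limma, and 7.67% of probes had all P-deficient arrays above all control arrays, as both genes did. The response chose both genes, so nothing is read from their place in that ranking.

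Between channels of the same replicate number, the rise of chalcone synthase varied. Subtracting the control channel from the P-deficient channel of the same line and replicate number gave 2.15, 2.84 and 1.51 for AK061132 in Nipponbare and 3.14, 1.13 and 1.44 in 6-4. All of these differences were above 1, with the lowest and the highest both in 6-4. Every such subtraction, also for AK071218, sets a Cy3 channel against a Cy5 channel. In both lines the highest value of AK061132 had the P-deficient channel in Cy5, and the lowest had it in Cy3. Differences between replicates and between dyes cannot be told apart here. For AK071218 the same subtraction gave 1.69, 2.47 and 1.57 in Nipponbare and 2.16, 3.12 and 2.51 in 6-4, so that 6-4 exceeded Nipponbare in every replicate. The share of all probes that did so is not given here.

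Fitted in each line on single channels, the response of AK061132 was 2.34 (SE 0.34, 5.08-fold) in Nipponbare and 1.73 (SE 0.34, 3.31-fold) in 6-4. That of AK071218 was 1.92 (SE 0.24, 3.78-fold) in Nipponbare and 2.59 (SE 0.24, 6.03-fold) in 6-4. The estimates for both lines come from the same arrays and are not independent of the ratios between lines given next. For AK061132 the size depends on how the dim control channels are treated. With Agilent's own processed signals its mean response was 2.57, with 3.03 in Nipponbare and 2.11 in 6-4, and without background subtraction it was 1.74.

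The ratio between lines averaged over both conditions did not enter the choice of the genes. Flavanone-3-hydroxylase gave less signal in 6-4 than in Nipponbare, while chalcone synthase did not pass the test in either direction. The difference between the genes was not tested. The log2 ratio of 6-4 over Nipponbare for AK071218 was -0.79, -0.97 and -1.16 on the control arrays of replicates 1 to 3 and -0.32, -0.33 and -0.22 on the P-deficient arrays. It was below 0 on 6 of 6 arrays with either dye order, as it was for 2.87% of all probes. For AK061132 the ratio was -0.64, 1.02 and -0.28 under control and 0.35, -0.69 and -0.34 under P deficiency. Its sign changed within both conditions, and on 5 of 6 arrays the channel in Cy5 was the brighter one, against 3 of 6 for AK071218.

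Averaged over both conditions with a term for dye order, the line effect of AK071218 was -0.63 (SE 0.06, n = 6 arrays, limma adjusted p = 0.0123), a level 1.55-fold lower in 6-4. Of all 20528 probes tested, 0.926% passed this test in either direction and 0.663% were lower in 6-4. Chalcone synthase had a line effect of -0.10 (SE 0.12, limma adjusted p = 0.71). In 16 alternative settings the value for AK071218 stayed between -0.74 and -0.51, and its adjusted p ranged from 0.00908 to 0.102, under 0.05 in 7 of them. The call was lost without control replicate 2 (-0.62, adjusted p = 0.0964) and without P-deficient replicate 1 (-0.62, adjusted p = 0.0891), replicate 2 (-0.62, adjusted p = 0.0974) or replicate 3 (-0.65, adjusted p = 0.0828), where limma had 5 arrays to fit. The array files were written by either of 2 versions of the Agilent software, 7.1 for replicates 1 and 2 and 8.1 for replicate 3, and with the version as a block the effect was -0.63 (limma adjusted p = 0.0217). Within version 7.1 it was -0.60 (limma adjusted p = 0.0293), and within 8.1 only 1 array per condition was left, with the ratios of replicate 3 given above.

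Under control, AK071218 was 1.96-fold lower in 6-4 (log2 -0.97, SE 0.09, limma adjusted p = 0.0124), in a comparison where 12.9% of all probes passed. Without control replicate 2 this became -0.94 (adjusted p = 0.236), and without P-deficient replicate 3, which shares the spread, -0.97 (adjusted p = 0.0598). Under P deficiency the value was -0.30 (SE 0.09, limma adjusted p = 0.0855), where 8.94% of probes passed. It came to -0.31 (adjusted p = 0.0445) without control replicate 1 and -0.28 (adjusted p = 0.0348) without control replicate 3. These were the only 2 of 15 alternative settings to pass, and the adjusted p ran up to 0.802. Leaving out any other array gave adjusted p from 0.143 to 0.465. The values of AK061132, given as a description because this gene was listed for its response in Nipponbare, were 0.21 (SE 0.18) under control and -0.41 (SE 0.18) under P deficiency. The control value of AK061132 became -0.12 without control replicate 2 and 0.37 without control replicate 1. Its P-deficient value became -0.17 when P-deficient replicate 3 was left out and -0.73 when replicate 2 was.

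The line effect of AK071218 was smaller under P deficiency than under control by 0.67 on the log2 scale (SE 0.13, limma adjusted p = 0.0171), a 1.59-fold change of the ratio between lines. This is the same quantity as the gap between the P responses of both lines. AK071218 was picked from genes known to respond to P in these data. Its difference and adjusted p, here and in the alternative settings, are therefore a description and not a test. The control and P-deficient ratios did not overlap, as for 16.8% of all probes, and the test of the difference passed for 19.7% of all probes. A share that large is the background against which this call stands. The arrays of replicate 2, with bright negative controls in Cy3, carried opposite dye orders under control and under P deficiency. A dye effect peculiar to those arrays therefore adds to the line effect in one condition and subtracts from it in the other. It cancels in the mean of both only if it is of equal size in both, which was not tested. In replicate 1 the median Cy3 negative control was 198 on the control array against 65.3 on the P-deficient array. A dye effect tied to that brightness would have no such counterpart in replicate 1. From these arrays a dye effect peculiar to replicate 2 and a true difference between conditions cannot be told apart. For AK071218 the control ratio of replicate 2 lay between those of the other control arrays, and its P-deficient ratio was the lowest of 3 by a small margin. Within each condition replicate 2 alone had its dye order, so these positions do not tell the explanations apart. The difference kept its sign in 15 alternative settings, with values from 0.40 to 0.88 and adjusted p from 0.01 to 0.563. It was 0.40 (adjusted p = 0.274) without background subtraction, 0.64 (adjusted p = 0.165) without control replicate 2, 0.69 (adjusted p = 0.0566) without P-deficient replicate 1, 0.70 (adjusted p = 0.117) without P-deficient replicate 2 and 0.65 (adjusted p = 0.0693) without P-deficient replicate 3. With limma and without background subtraction 0 probes in all passed the test of the difference, and 3906 had an unadjusted p under 0.05. For AK061132 the same difference was -0.62 (SE 0.26), of the opposite sign.

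**Figure D3:**
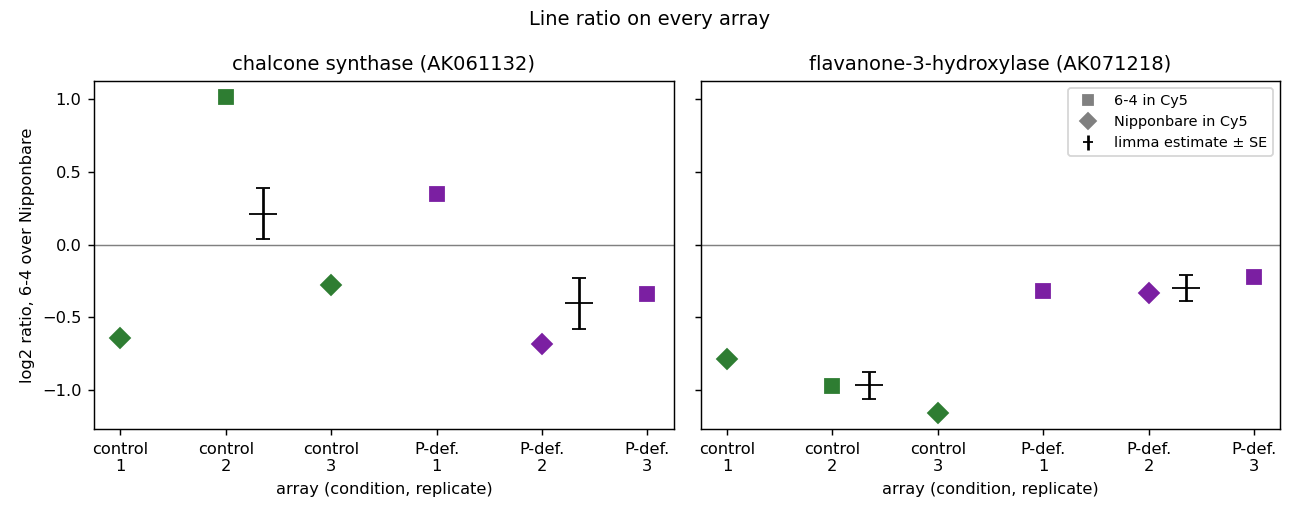
Log2 ratio of 6-4 over Nipponbare (vertical axis) for AK061132 and AK071218 on each array (horizontal axis), green for control and purple for P-deficient arrays. Squares mark arrays with 6-4 in Cy5 and diamonds those with Nipponbare in Cy5, and black bars give the limma estimate ± SE per condition. All ratios of AK071218 are below 0, with -1.16 to -0.79 under control and -0.33 to -0.22 under P deficiency, whereas those of AK061132 lie on both sides of 0 in each condition.

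Other probes described as the same enzymes are set beside AK061132 and AK071218 here as values, since the P response chose these 2 genes and the contrast with unchosen probes is not tested. The remaining 4 probes for chalcone synthase had P responses from -0.54 to 0.29, and 0 passed either the adjusted or the unadjusted threshold of 0.05 in limma. They include AK067810 at 0.29 (SE 0.67) and AK110924 at -0.23 (SE 0.43), both described as rice chalcone synthase mRNAs, and the SE of each is larger than that of AK061132. AK109558, described as chalcone synthase 11 of raspberry, read -0.54 (SE 0.25), and AK100989, described as the enzyme of stock, read -0.20 (SE 0.25). Chalcone synthase belongs to the type III polyketide synthases, whose members catalyse different reactions.

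Probes described as flavanone 3-hydroxylase-like or naringenin 3-dioxygenase numbered 6 beside AK071218, and their P responses were all below 0, from -0.65 to -0.10. None of the 6 passed the adjusted limma test, and 4 had an unadjusted p under 0.05. AK061357 had the lowest value, -0.65 (SE 0.14, limma adjusted p = 0.0734), followed by AK068438 at -0.62 (SE 0.17, limma adjusted p = 0.177). Both carry the description of an Arabidopsis gene also known as DMR6, which is best known from susceptibility to downy mildew. Arrays of the same replicate number deviated together in level across conditions, which cannot be told apart from an effect of software version. With replicate number as a block in the fit AK061357 fell (log2 -0.65, limma adjusted p = 0.0209).

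The lists of steps around both enzymes held 100 further probes on the array, of which 96 were tested. In the mean response to P, 1 of these rose and 1 fell, or 2.08% against 1.51% of all probes, and the medians of the general phenylpropanoid, flavonoid and lignin lists were -0.03, -0.07 and -0.04 against -0.01 over all probes. With replicates blocked 4.28% of all probes passed, 878 in place of 309, and among the list probes 4 rose and 4 fell.

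General phenylpropanoid steps feed both the flavonoid and the lignin branch, and 13 of their 14 probes were tested. All 5 probes for phenylalanine ammonia-lyase, the entry enzyme, lay between -0.48 and 0.02 and none passed. Among 8 probes for 4-coumarate CoA ligase, which makes the CoA ester used by chalcone synthase, 1 rose. This was AK105693, with array means of 13.40, 13.31 and 12.66 under control and 14.31, 14.18 and 14.09 under P deficiency. Its response was 1.07 (SE 0.20, limma adjusted p = 0.0427), and the adjusted p ran up to 0.332 in 15 alternative settings. The call was lost without control replicate 1 (adjusted p = 0.101) or 2 (adjusted p = 0.112) and without P-deficient replicate 1 (adjusted p = 0.137), 2 (adjusted p = 0.131) or 3 (adjusted p = 0.0619). AK105693 is described as an Arabidopsis 4-coumarate-CoA ligase-like protein, a family that also holds ligases for other acids. For the 6-4 channels of the single-channel fit its response was 1.17 (limma adjusted p = 0.0383), in a comparison where 1.44% of all probes passed, and in Nipponbare, where 0.883% passed, it was 0.97 and did not pass.

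Downstream flavonoid steps showed no call in the mean response. Of 36 probes tested, 0 passed the adjusted limma test, 9 had an unadjusted p under 0.05, and 8 of those 9 were below 0. Chalcone isomerase, between the enzymes of AK061132 and AK071218, was represented by AK061390, whose response was 0.14 (limma adjusted p = 0.956). The highest value was that of AK071127, described as a flavonoid glycosyltransferase of black gram, at 1.16 (SE 0.28, limma adjusted p = 0.11). The lowest was that of AK109339, described as a rice isoflavone reductase-like protein, at -1.03 (SE 0.22, limma adjusted p = 0.0734). With replicates blocked 4 of the 36 passed. AK071127 rose (limma adjusted p = 0.00436), while AK109339 fell (limma adjusted p = 0.0371), as did AK061357, given above, and AK101447, described as a flavonol synthase-like protein (log2 -0.51, limma adjusted p = 0.0443).

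Among 47 tested probes of lignin steps, 1 fell in the mean response. AK109431, described as a laccase of ryegrass, an oxidase that couples lignin precursors, read 9.47, 9.76 and 9.50 under control and 8.70, 8.87 and 8.72 under P deficiency. The change was -0.81 (SE 0.14, limma adjusted p = 0.0296), and it was past the threshold in 5 of 15 alternative settings, with adjusted p up to 0.308. Leaving out any 1 of the 6 arrays raised the adjusted p to between 0.0606 and 0.141. With replicates blocked AK068648, described as a cinnamoyl-CoA reductase, rose by 1.43 (limma adjusted p = 0.00081; without the block 0.164) and AK067847, described as the ferulate 5-hydroxylase of Arabidopsis, by 0.70 (limma adjusted p = 0.0185; without the block 0.252).

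**Figure D4:**
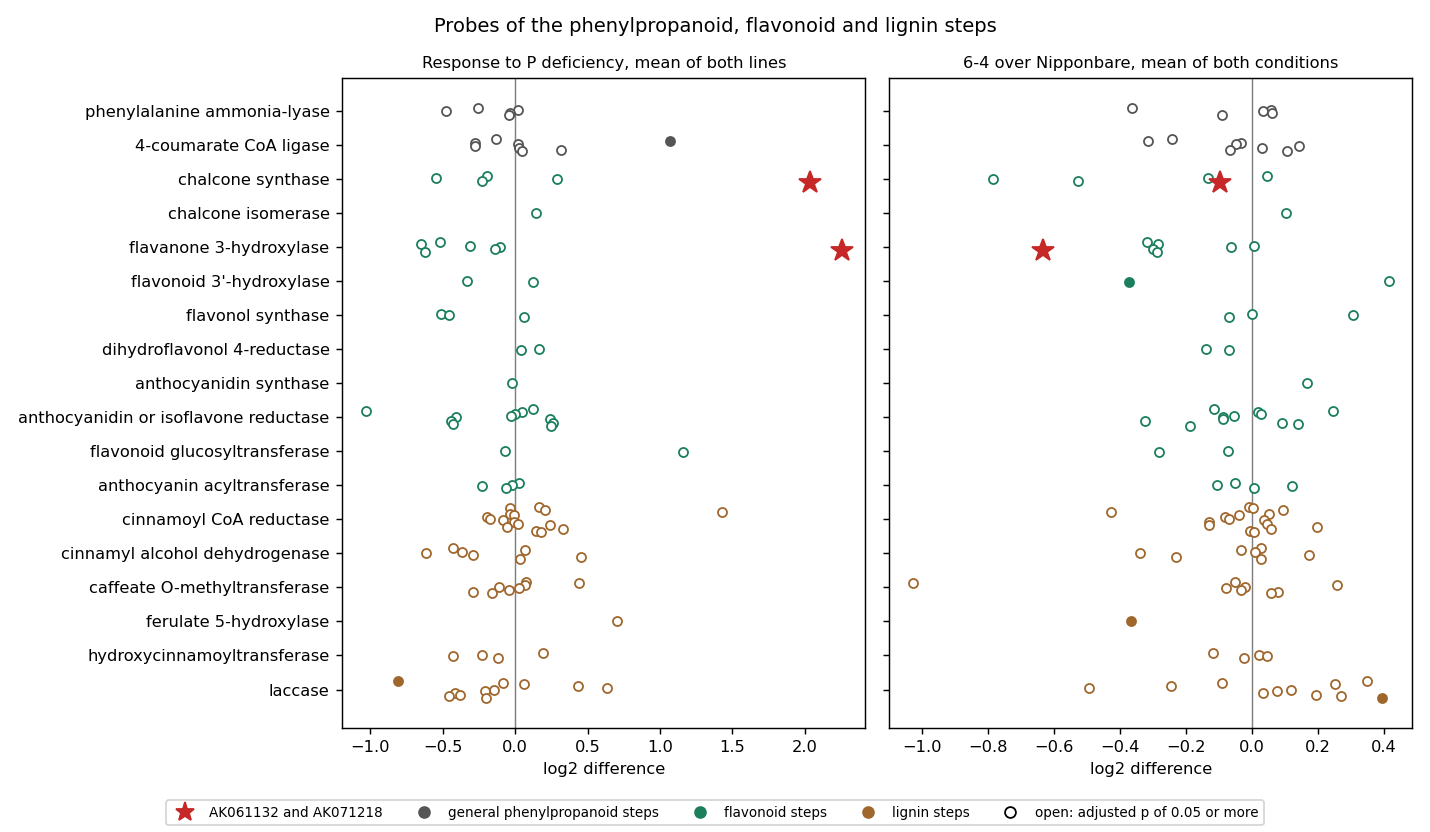
Log2 response to P deficiency averaged over both lines (left) and log2 difference of 6-4 from Nipponbare averaged over both conditions (right) of every tested probe, by step of the phenylpropanoid, flavonoid and lignin lists (vertical axis). Stars are AK061132 and AK071218, filled circles passed an adjusted p of 0.05 in limma and open circles did not. Both stars lie at or above 2.04 in the left panel, where the other chalcone synthase and flavanone 3-hydroxylase probes lie between -0.65 and 0.29.

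In the line effect averaged over both conditions, 3 of the 96 list probes passed, or 3.12% against 0.926% of all probes. AK064736, described as a flavonoid 3-hydroxylase of China aster that adds a hydroxyl to the B ring, was lower in 6-4 on 6 of 6 arrays. Its line effect was -0.37 (SE 0.05, limma adjusted p = 0.0305; 0.0605 with replicates blocked). The ferulate 5-hydroxylase probe AK067847 was also lower on 6 of 6 arrays (log2 -0.37, SE 0.06, limma adjusted p = 0.046; 0.0703 with replicates blocked). AK072397, described as a laccase of tulip tree, was higher on 6 of 6 (log2 0.40, SE 0.05, limma adjusted p = 0.0248). Across 16 alternative settings these kept their sign and passed in 4, 2 and 5 of them. Leaving out 1 array at a time gave adjusted p from 0.0246 to 0.18 for AK064736, 0.0373 to 0.24 for AK067847 and 0.0219 to 0.149 for AK072397, and the call of AK064736 and AK072397 was lost without control replicate 2 or any 1 of the P-deficient arrays. Among these leave-outs that of AK067847 held only without control replicate 3.

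Of the 6 other flavanone 3-hydroxylase-like probes, 5 were below 0 in the line effect, with a range from -0.32 to 0.01. The adjusted limma test passed for 0 of them and an unadjusted p under 0.05 was found for 4, against the -0.63 of AK071218. The 4 other chalcone synthase probes lay between -0.79 and 0.05, and 0 passed the adjusted test, with 1 at an unadjusted p under 0.05. With replicates blocked, AK110924, a rice chalcone synthase by its description, was lower in 6-4 (log2 -0.53, limma adjusted p = 0.0151; 0.345 without the block). Its ratios were -1.44, -0.26 and -0.05 under control and -1.43, -0.04 and 0.05 under P deficiency, so both large values came from replicate 1. The caffeic acid O-methyltransferase probe AK069960 was also lower with replicates blocked (log2 -1.03, limma adjusted p = 0.00416; 0.299 without the block). With that block few arrays were left to estimate the spread of a single probe. Both calls therefore lean on the spread shared by all probes.

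Within a single condition more list probes passed. Under control 18 of 96 passed, or 18.8% against 12.9% of all probes. With replicates blocked 10 passed, of which 8 were among those 18 (AK058641, AK061325, AK062287, AK064211, AK068438, AK072000, AK072397 and AK107198), and the others were AK069960 and AK110924. Among flavonoid steps AK064211, described as an anthocyanidin synthase, was higher in 6-4 by 0.64 (limma adjusted p = 0.0152), as were AK061325, an isoflavone reductase-like protein (0.50, adjusted p = 0.0489), AK070442, a flavonoid 3-hydroxylase (0.48, adjusted p = 0.0395), and AK072654, an anthocyanidin reductase (0.36, adjusted p = 0.0264). Lower in 6-4 under control were the flavanone 3-hydroxylase-like AK068438 (-0.46, limma adjusted p = 0.0233) and AK061357 (-0.44, adjusted p = 0.0321), the anthocyanidin reductase AK068564 (-0.45, adjusted p = 0.0414), AK064736 (-0.34, adjusted p = 0.0321) and the dihydroflavonol reductase AK099770 (-0.27, adjusted p = 0.0432).

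Of the lignin probes under control, AK072000 (cinnamyl alcohol dehydrogenase, 0.70), AK060544 (laccase, 0.61), AK072397 (0.56), AK058641 (cinnamoyl-CoA reductase, 0.50) and AK068901 (laccase, 0.39) were higher in 6-4, with limma adjusted p from 0.0152 to 0.0471. The cinnamoyl-CoA reductase probes AK062287 (-0.48), AK107198 (-0.46) and AK102061 (-0.41) and AK067847 (-0.42) were lower, with adjusted p from 0.0179 to 0.0345. Probes described as cinnamoyl-CoA reductase thus went in both directions, while the 3 laccase probes past the threshold were all higher.

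Under P deficiency 6 of 96 passed, or 6.25% against 8.94% of all probes, and with replicates blocked 2 passed, AK107198 and AK069960. Lower in 6-4 were the chalcone synthase probe AK109558 (-0.50, limma adjusted p = 0.0221), AK064736 (-0.41, adjusted p = 0.0272) and the cinnamoyl-CoA reductase AK107469 (-0.38, adjusted p = 0.0363). Higher were AK107198 (0.55, limma adjusted p = 0.0157), AK062287 (0.49, adjusted p = 0.0343) and the flavonol synthase-like AK067408 (0.42, adjusted p = 0.0424). These within-condition calls share the limit given above for the arrays of replicate 2. For AK109558 the P-deficient ratios were -0.04, -1.08 and 0.14, so that its call rests on replicate 2.

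The probes most like each gene were found among 14994 described probes by Pearson's correlation of the normalized log2 level over the 12 channels, which share arrays, lines and conditions. For chalcone synthase these were AK069215 (r = 0.96), described as an Arabidopsis protein of unknown function, AK059608 (r = 0.957), nuclease I of barley, AK064627 (r = 0.954), glutathione S-transferase GST 28 of maize, AK063714 (r = 0.953), an Arabidopsis clone, and AK065128 (r = 0.946), a diphosphonucleotide phosphatase of lupin. Their P responses ran from 0.84 to 2.19 and their line effects from -0.19 to -0.04.

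For flavanone-3-hydroxylase the closest were AK066126 (r = 0.988), AK071605 (r = 0.988), AK099968 (r = 0.988), AK065178 (r = 0.987) and AK072715 (r = 0.984). AK072715 is described as a putative cytochrome P450 of stock. It responded to P by 2.04 (SE 0.19), with a line effect of -0.74 (SE 0.07) and a ratio below 0 on 6 of 6 arrays. AK099968, an Arabidopsis protein of unknown function by its description, responded by 1.97 and had a line effect of -0.46 (SE 0.06). The line effects of the other probes named here ran from -0.31 to -0.25. These values are a description, since the probes were picked for likeness over the channels that carry both effects. Chalcone synthase and flavanone-3-hydroxylase correlated with each other at r = 0.855, which ranked 107th among the correlations of AK061132 and 366th among those of AK071218.

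**Figure D5:**
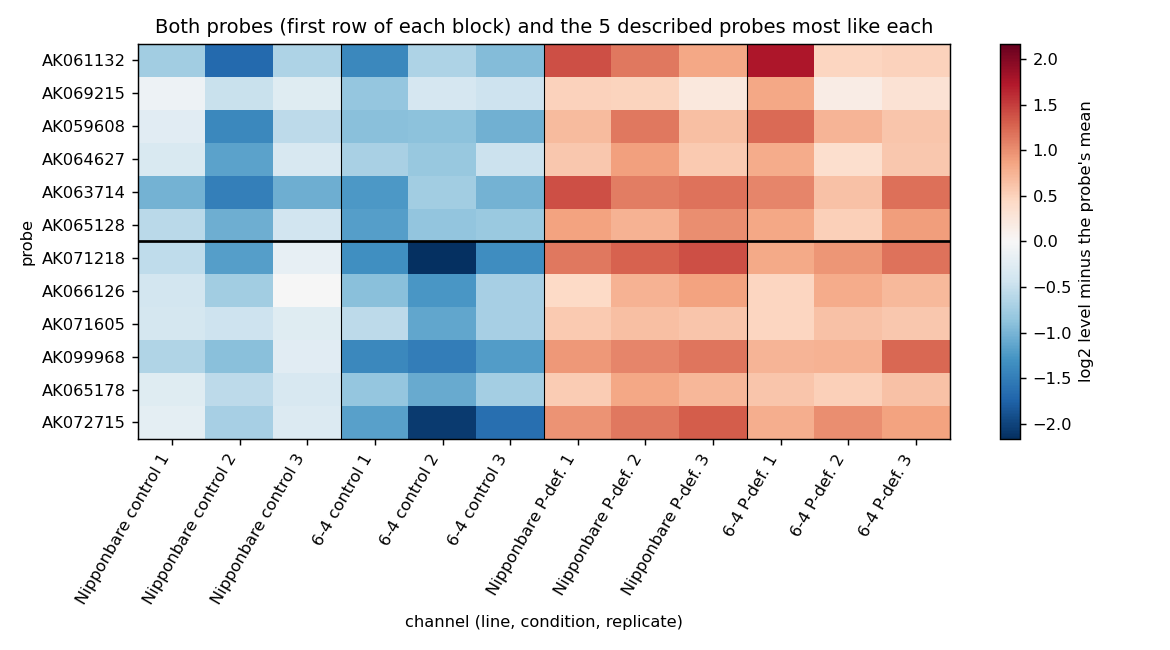
Normalized log2 level minus each probe's own mean (colour) in the 12 channels (columns, by line, condition and replicate) for AK061132 and its 5 most similar described probes (upper block) and AK071218 and its own 5 (lower block). All rows change from low to high between control and P-deficient channels, and in every row of the lower block the lowest channel is 6-4 control replicate 2, where AK071218 read 7.49.

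Genes of phosphate uptake and recycling were taken as markers of the P status of these roots. Of 28 probes described as phosphate transporters, purple acid phosphatases or monogalactosyldiacylglycerol synthase, 25 were tested, 8 rose in the mean response and 0 fell, with 13 at an unadjusted p under 0.05, all above 0, where 1.51% of all probes passed. The classes differed in this response. The 14 tested transporter probes had a median of 0.02, with 7 above and 7 below 0, and 3 rose. All 10 tested phosphatase probes lay above 0, and 4 rose. In the mean line effect 5 of the 25 tested probes were lower in 6-4 and 0 higher, where 0.926% passed. Under control 10 were lower and under P deficiency 3, with 0 higher in either, where 12.9% and 8.94% of all probes passed. AK064148 is for monogalactosyldiacylglycerol synthase, which makes galactolipids that can replace phospholipids. It had the highest response of the 25, 2.51, and a line effect of -0.88 under control and -0.05 under P deficiency. The phosphatase probe AK110804, whose enzyme class releases phosphate from organic compounds, had the highest response of its class, 2.44. It was lower in 6-4 by similar amounts in both conditions, -0.69 and -0.78.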

How the data were processed

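Root RNA of 2 rice lines was hybridized to 6 two-colour Agilent arrays. Per the file headers, the authors extracted probe intensity with Agilent Feature Extraction 7.1 (replicates 1 and 2) or 8.1 (replicate 3), whereas the array of P-deficient replicate 2 is under 8.1 per the submitters' processing notes. The authors' deposited table holds log10 ratios, equal to the scanner log ratios with the sign turned to 6-4 over Nipponbare for all 22575 spots within 0.005. Background was corrected here by normexp (offset 50) from mean signal and background, followed by loess within arrays, Aquantile between arrays and exclusion of dim probes, which left 20531 of 21495 rice probes. Line effects were fitted with lmFit and eBayes (limma 3.58.1, R 4.3.3) on log2 ratios with a term for dye order, the mean response on the mean level of each array, and responses within a line on single channels (intraspot correlation 0.785). Adjusted p is Benjamini-Hochberg over all probes, with a threshold of 0.05. The fits were run on simulated data with independent arrays. Those data held no dye effect peculiar to an array, no signal floor and no shared deviation of replicates, so they do not bear on these limits. The number of arrays limits the precision.

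Same-numbered control and P-deficient arrays deviated together in level (correlations 0.402, 0.315 and 0.66). Control replicate 2 also correlated with P-deficient replicate 1 at 0.277, and control replicate 1 with P-deficient replicate 2 at 0.0991. The remaining pairs were negative, and each held a replicate 3 array. Replicates 1 and 2 were thus little separated, and replicate 3 alone was under software 8.1 in the file headers. Pairing by number and an effect of software version cannot be told apart here. In line ratios the same-numbered arrays correlated at -0.604, -0.751 and -0.371, but all 3 pairs hold opposite dye orders. Over all 9 pairs of a control and a P-deficient array the sign followed dye order, so these values do not bear on pairing. The genes, the lists and the rule for naming (list probes past the threshold in any comparison, otherwise up to 4 per list with the smallest p) were chosen with earlier results of these data known. The report names probes beyond the rule (AK067810, AK110924, AK100989, AK069960 and the P status examples), chosen after their values were seen. Alternatives changed background, normalization, filter, dye term, blocks and arrays.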

Additional observations from a re-analysis of the deposited data

Results flagged for a closer look

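For AK071218 the line effect differed between conditions by 0.67 on the log2 scale (P-deficient minus control), given as a description. By the test of the difference itself the line effect differed for 15 of the 96 list probes, a share of 15.6% against 19.7% of all probes. The difference was above 0 for the 4-coumarate CoA ligase AK067261 (0.43), the chalcone isomerase AK061390 (0.70), the dihydroflavonol reductase AK099770 (0.41), the anthocyanidin reductase AK068564 (0.73) and the cinnamoyl-CoA reductases AK062287 (0.97), AK107198 (1.01) and AK102061 (0.55). It was below 0 for the chalcone synthase AK109558 (-0.73), the anthocyanidin synthase AK064211 (-0.94), the anthocyanidin reductases AK059518 (-0.44) and AK072654 (-0.53), the isoflavone reductase-like AK061325 (-0.72), the cinnamoyl-CoA reductases AK107469 (-0.59) and AK058641 (-0.88) and the cinnamyl alcohol dehydrogenase AK072000 (-1.05). With replicates blocked 9 of the 15 stayed past the threshold. In each case a dye effect peculiar to the arrays of replicate 2 and a difference between conditions cannot be told apart. For AK071218 the limit from how it was picked, given above, holds as well.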

How the results depend on the processing

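In every alternative run, AK061132 and AK071218 kept the sign of their P response, and AK071218 that of each line effect. The line effect of AK071218 averaged over conditions missed the threshold without background subtraction (-0.51), with Agilent's processed signals (-0.74), the deposited table (-0.74) or median centring (-0.68), and, in an alternative chosen after seeing the data, on the arrays of replicates 1 and 3 alone (-0.62). Leaving out 1 array at a time gave -0.69 to -0.58. Under control it missed without background subtraction (-0.71), with -1.07 to -0.88 when 1 array was left out. Under P deficiency leaving out 1 array gave -0.33 to -0.27. The difference missed without background subtraction (0.40), without a dye term (0.68) or with median centring (0.81), and ran from 0.60 to 0.76 when 1 array was left out. The cause of these losses was not tested. For AK061132 the difference was -0.22 without background subtraction and -1.01 to -0.23 when 1 array was left out.

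The number of probes called in the mean line effect, 190, became 26 without background subtraction, 19 with processed signals, 19 with the deposited table, 40 without a dye term, 64 with median centring, 34 on replicates 1 and 3, and 21 to 840 when 1 array was left out. Under control 2653 became 2, 704, 718, 24 and 827 in the first 5 of these settings, and 2 to 4241. Under P deficiency 1835 became 1, 185, 185, 13 and 40, with 1212 under the version block, and 6 to 4477. For the difference 4035 became 0 (3906 at an unadjusted p under 0.05), 1979, 1991, 0 (1785) and 2140, and 0 to 6149, the 0 without control replicate 2 (4106 at an unadjusted p under 0.05). With median centring the split was 103 higher and 724 lower under control (1383 and 1270 with loess), and 1623 and 517 for the difference (1929 and 2106 with loess). In the P response 309 became 82 with processed signals, 746 with the version block, 170 without normalization between arrays, 14 on replicates 1 and 3, and 89 to 231.

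A replicate block gave 306 calls for the line effect averaged over conditions, 1352 for control arrays, 703 for P-deficient arrays, 2536 for the difference and 878 in the P response. Of the list probes called in the mean line effect 1 of 3 stayed called under it, of those called under control 8 of 18, under P deficiency 1 of 6 and for the difference 9 of 15. AK071218 stayed past the threshold in the mean (-0.63, limma adjusted p = 0.00908), under control and for the difference. For line ratios, terms for condition, dye order and replicate used up nearly all of the arrays. The spread in that fit came mostly from the spread shared by all probes, so calls kept or gained under it are a weak check.

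The P response of AK061132 moved by more than its replicate SD with processed signals (2.57, with 3.03 in Nipponbare and 2.11 in 6-4), without background subtraction in Nipponbare (1.86), and on replicates 1 and 3 (1.91 in Nipponbare, 2.37 in 6-4). That of AK071218 moved with processed signals in 6-4 (2.96). Low signal over negative controls in Cy3 limits the control levels of AK061132 and, to a lesser degree, those of AK071218 with the line effects that rest on them.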
